A study of Homo sapiens
Mus musculus with 3 samples.

Results

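The plasma-cell programme was examined as 9 mouse genes, found by their Ensembl identifiers among the 27998 mouse genes of each read table: *Xbp1*, *Prdm1*, *Irf4*, *Pou2af1*, *Jchain*, *Mzb1*, *Derl3*, *Sdc1* and *Tnfrsf17*. They were measured in 3 ICELL8 libraries, in which single cells are dispensed into barcoded nanowells and the 3′ ends of their transcripts are counted. Each library came from equal parts of human Jurkat and TALL-104 cells, which are T-cell leukemia lines, and of mouse EL4 and IVA12 cells, with no treatment named in the labels. EL4 derives from a T-cell lymphoma, and IVA12 is a hybridoma, a fusion of antibody-producing B cells with myeloma cells. Both libraries of the 3'DE group were made with the official kit, and the 1 library of the 3'DE-UMI group with a modified protocol in which unique molecular identifiers (UMIs) can be counted. In the study's sample sheet, the 3'DE-UMI library shares its cell mixture with 3'DE library 2, and 3'DE library 1 came from another mixture.

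An antibody-secreting cell turns off the identity of a B cell and enlarges its secretory apparatus. Irf4 and Prdm1 (Blimp-1) are the transcription factors that start and hold this state, Xbp1 drives the genes of the endoplasmic reticulum, and Pou2af1 (OCA-B) is a coactivator of octamer-binding factors at immunoglobulin genes. Jchain joins the units of polymeric IgM and IgA, Mzb1 is a chaperone of the endoplasmic reticulum that helps antibody assembly, and Derl3 takes part in the removal of misfolded proteins from that compartment. Sdc1 (CD138) and Tnfrsf17 (BCMA, a receptor for the survival factors BAFF and APRIL) stand on the surface. Sequencing of 3′ ends does not tell the spliced, active form of *Xbp1* mRNA from the unspliced one.

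The libraries held 35581264, 109702878 and 44883618 reads for 3'DE library 1, 3'DE library 2 and 3'DE-UMI respectively, an order kept for every set of 3 values here. Mouse wells numbered 922, 773 and 700, and they fell into 2 clusters when the 9 genes were left out of the clustering. Mouse cluster 1 held 473, 496 and 468 wells and mouse cluster 2 held 444, 275 and 230 wells, counting the wells placed alike by both sets of genes used (2386 of 2395). The files pair no identifier with a symbol, so the marker genes of EL4 and IVA12 could not be looked up and the clusters carry numbers, not names of lines. Between 469 and 539 well barcodes were shared by any pair of libraries, among them 160 to 202 barcodes of mouse wells in both. Values are reads per 1000000 mouse reads (CPM) over the wells of a cluster, and levels of different genes are not ranked, because gene length and 3′ capture differ between them. Summed over the 9 genes, the programme made up 3860, 5500 and 6860 CPM of cluster 2 wells, against 192, 224 and 133 CPM of cluster 1 wells.

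The first question was in which mouse wells the programme was present. The 4 regulators were higher in mouse cluster 2 in every library. *Xbp1* (ENSMUSG00000020484) stood at 223, 229 and 240 CPM in cluster 2, against 45.1, 71.7 and 47.0 CPM in cluster 1. The cluster 2 values lay close together, and the fold over cluster 1 was 4.93, 3.20 and 5.11. *Prdm1* (ENSMUSG00000038151) had 30.9, 49.97 and 54.3 CPM in cluster 2 against 2.25, 4.72 and 7.15 CPM in cluster 1. Its reads in cluster 1 came from few wells: of the 129 reads in the 3'DE-UMI library, 1 well held 48.1%. *Irf4* (ENSMUSG00000021356) had 72.9, 132 and 143 CPM in cluster 2 and 7.13, 5.40 and 7.93 CPM in cluster 1. *Pou2af1* (ENSMUSG00000032053) had 517, 974 and 926 CPM in cluster 2 and 71.5, 79.9 and 42.9 CPM in cluster 1. For *Prdm1*, *Irf4* and *Pou2af1*, 3'DE library 1 was the lowest of the libraries in cluster 2, and the libraries of the shared mixture lay side by side. This did not hold for every member: for *Mzb1*, 3'DE library 1 lay between the libraries of the shared mixture. No value of either cluster overlapped the other for any of the 4 regulators. The same separation, with cluster 2 higher, held for 25.9% of the 11270 genes tested.

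The secretory genes *Jchain* and *Mzb1* showed larger folds than the regulators. *Jchain* (ENSMUSG00000067149) stood at 2126, 3362 and 4362 CPM in cluster 2, against 45.5, 49.6 and 18.2 CPM in cluster 1, which is a fold of 46.7, 67.8 and 239. By UMIs the fold in the 3'DE-UMI library was 94.0. *Mzb1* (ENSMUSG00000024353) had 848, 696 and 1076 CPM in cluster 2 and 19.1, 11.2 and 8.43 CPM in cluster 1, a fold of 44.5, 62.2 and 128, and by UMIs of 73.6 in the last library. Both genes were lowest in cluster 1 of the 3'DE-UMI library, where 1 well held 44.1% of the 152 *Mzb1* reads. *Derl3* (ENSMUSG00000009092) was the exception among the 9 genes. It had 8, 10 and 3 reads in cluster 2 and 4, 8 and 24 reads in cluster 1, and its 24 reads came from a single well and 1 UMI. Its clusters overlapped at 0.921, 0.648 and 0.295 CPM against 0.300, 0.199 and 1.33 CPM, so a difference of this gene was not detectable at this depth.

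The surface genes were sparse, and most of their mouse-well reads lay in mouse cluster 2. *Sdc1* (ENSMUSG00000020592) had 307, 789 and 461 reads there, or 35.4, 51.1 and 45.3 CPM, and 17, 44 and 0 reads in mouse cluster 1. With 3 reads as the floor for a count of 0 in a library, it was 27.7 and 46.7 times higher in the 3'DE libraries and at least 272-fold higher in the 3'DE-UMI library. *Tnfrsf17* (ENSMUSG00000022496) had 58, 84 and 117 reads in cluster 2 and 2, 3 and 0 in cluster 1. Its cluster 2 reads lay in 18, 8 and 7 wells, and a single well held 66.7% of them in 3'DE library 2 and 33.3% for 3'DE-UMI. Intervals and floors here cover counting error only, since reads amplified by PCR are not independent molecules.

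**Figure D1:**
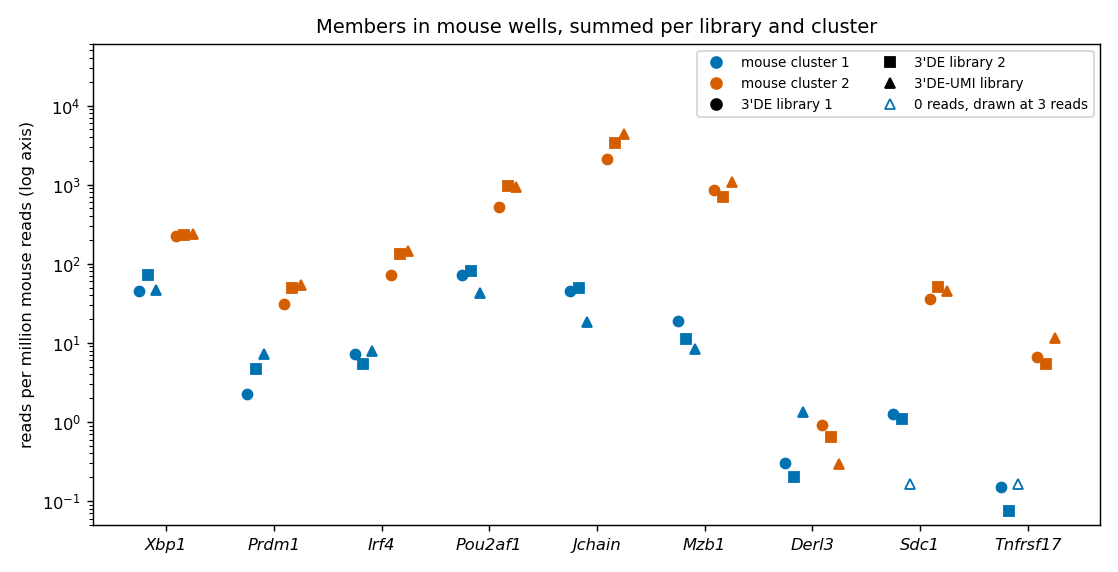
CPM of mouse reads (log axis) of the 9 genes, summed over the wells of mouse cluster 1 (blue) and mouse cluster 2 (orange) in each library (marker shape). For all genes but *Derl3* the 3 orange points lie above the 3 blue points, a separation seen for 25.9% of the genes tested. *Jchain* runs from 2126 to 4362 CPM in cluster 2 and from 18.2 to 49.6 CPM in cluster 1.

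The clusters were compared in edgeR over the 6 summed profiles, with the library as a block, TMM scaling and Benjamini-Hochberg adjustment over 11270 mouse genes. Of these genes, 20.1% were called higher in mouse cluster 2 at an adjusted p below 0.05. *Derl3* did not pass the filter on low counts, and *Sdc1* and *Tnfrsf17* passed it only through cluster 2. Each of the 6 members that also passed on the cluster 1 profiles alone was called higher in cluster 2. With no filter on low counts, 8 of the 9 members were called higher, where 12.8% of 18569 genes were. The median log2 difference was then 3.81 over the 9 genes and 0.04 over all genes. The members were chosen with earlier results of these data known, so these shares and medians describe the list and do not test it. The CPM of every library was higher in cluster 2 than any in cluster 1 for 8 of the 9 genes, and for 25.9% of the genes tested.

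Fitted differences between the clusters were smallest for the regulators. *Xbp1* differed by 1.89 on the log2 scale (SE 0.22; edgeR adjusted p = 0.000298). *Prdm1* differed by 3.12 (SE 0.34; edgeR adjusted p = 0.000211), *Pou2af1* by 3.41 (SE 0.28; 6.35e-05) and *Irf4* by 3.84 (SE 0.29; 4.27e-05). The intervals of these 3 genes overlapped one another, and that of *Xbp1* (95%, 1.39 to 2.38) overlapped only the interval of *Prdm1* (2.35 to 3.89). The secretory pair had larger values, at 6.26 for *Jchain* (SE 0.45; edgeR adjusted p = 3.40e-05) and 5.91 for *Mzb1* (SE 0.31; 1.01e-05). The cluster 1 levels of this pair were not consistently above those of human wells, so these sizes are not ranked as expression. For the surface genes the fit gave 5.79 for *Sdc1* (SE 0.78) and 6.36 for *Tnfrsf17* (SE 1.09), as a description. Both had passed the filter through the group where they were high, and both had no read in 1 of the cluster 1 profiles, so the values depend on the prior count. Within the shared mixture, without 3'DE library 1, the log2 difference was 1.74 for *Xbp1*, 4.12 for *Irf4* and 6.70 for *Jchain*, and the 6 members that had passed on cluster 1 alone were again called, where 13.0% of 11682 genes were called higher. The labels do not say that the libraries came from separate cultures, so these p-values measure the spread between libraries, which may be technical.

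**Figure D2:**
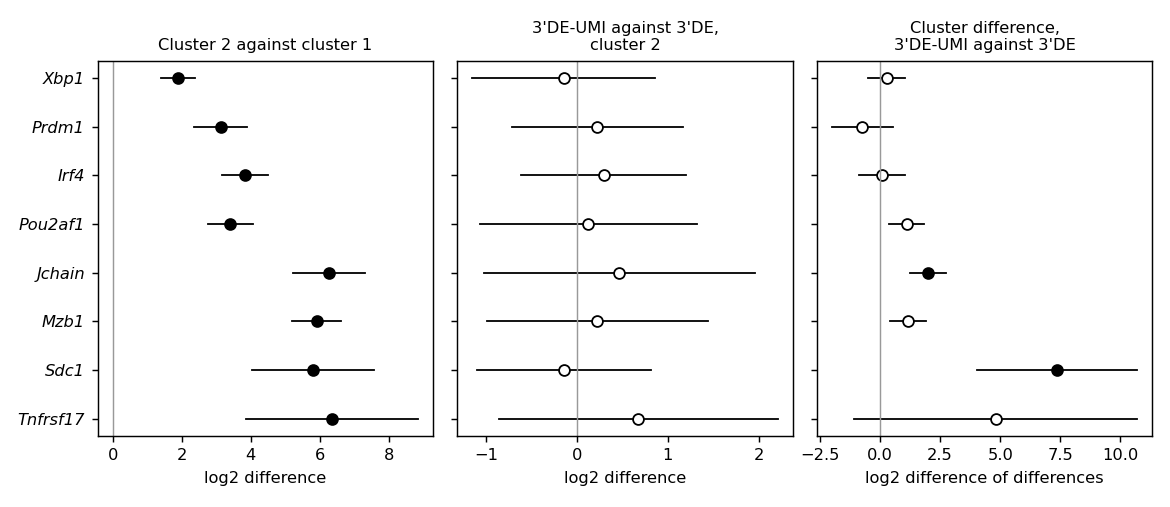
Fitted log2 differences (points; filled where the edgeR adjusted p was below 0.05) with 95% intervals (lines) for the 8 genes that passed the filter: cluster 2 against cluster 1, 3'DE-UMI against 3'DE within cluster 2, and the change of the cluster difference with the protocol. All 8 points are filled on the left, where *Sdc1* and *Tnfrsf17* passed the filter only through cluster 2, none in the middle, and those of *Jchain* and *Sdc1* on the right; the *Sdc1* value on the right rests on a profile with 0 reads.

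Read counts show where the programme lay on average, and detection shows how many wells carried it. Every well was thinned to 5000 reads, which left out 14, 18 and 12 wells of mouse cluster 1 and 18, 38 and 6 wells of mouse cluster 2. *Jchain* was then found in 425 of 426, 237 of 237 and 222 of 224 cluster 2 wells. *Mzb1* was found in 92.7%, 81.4% (exact 95% binomial interval, 75.9 to 86.2) and 79.9% (74.1 to 85.0). *Pou2af1* was found in 81.7% (77.7 to 85.2), 85.7% (80.5 to 89.9) and 67.4% (60.8 to 73.5), so the 3'DE-UMI library lay below both 3'DE libraries beyond counting error. *Xbp1* was found in 48.4%, 44.3% and 38.4% of cluster 2 wells, with overlapping intervals for 3'DE library 2 (37.9 to 50.9) and 3'DE-UMI (32.0 to 45.1).

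The scarcer members were missed in most cluster 2 wells at this depth. *Irf4* was found in 23.0%, 21.9% and 20.5% of wells, *Sdc1* in 14.8%, 17.7% and 10.3%, and *Prdm1* in 10.8%, 11.4% and 9.38%. *Tnfrsf17* was found in 2.11%, 0.422% and 2.23% of wells, and *Derl3* in 0.704%, 0.422% and 0 of 224 wells, which allows a share of wells with a read of up to 1.34%, taking 3 wells as the floor for a count of 0. Without thinning, at median depths of 20352, 21748 and 33648 reads, the shares of *Irf4* rose to 39.2%, 38.2% and 29.1% and those of *Sdc1* to 34.2%, 37.8% and 22.2%. The 3'DE-UMI library had the lowest unthinned shares of *Irf4* and *Sdc1*, although its cluster 2 wells were the deepest and its CPM of *Irf4* was the highest. Shares and CPM thus ordered the libraries differently for these genes, and no order of expression is read from the shares.

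Human wells should lack these mouse genes, and mouse reads in them give the background share. At 5000 reads, *Jchain* was found in 13.2%, 18.3% and 6.76% of human wells and in 14.6%, 22.8% and 4.82% of mouse cluster 1 wells, and the exact intervals of human and cluster 1 wells overlapped in every library. The same was true of *Mzb1*, found in 5.67%, 4.92% and 1.99% of human wells and 5.88%, 5.44% and 1.54% of cluster 1 wells. The shares of *Jchain* and *Mzb1* in mouse cluster 1 are not read as expression, and their source was not tested. *Irf4* was found in 0.907%, 0.895% and 0.199% of human wells and 2.18%, 2.93% and 1.54% of cluster 1 wells, also with overlapping intervals. Unthinned, its shares were 1.31%, 4.34% and 0.180% of human wells and 6.55%, 11.9% and 2.56% of cluster 1 wells, with intervals apart in every library. The unthinned intervals of *Jchain* and *Mzb1* were apart only in 3'DE library 1. Unthinned human wells had the lower median depth in every library. *Prdm1* was found at 5000 reads in 1.09%, 1.67% and 0.439% of cluster 1 wells and in no human well, with overlapping intervals. *Xbp1* and *Pou2af1* stood above the human wells: *Xbp1* was found in 1.59%, 2.46% and 0.994% of human wells and in 17.9%, 15.9% and 8.11% of cluster 1 wells. *Pou2af1* was found in 6.58%, 5.82% and 0.795% of human wells and in 21.8%, 23.8% and 6.36% of cluster 1 wells. Median depths were 25263, 42097 and 18889 reads in the human wells and 28905, 39656 and 30912 reads in the cluster 1 wells, before thinning.

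**Figure D3:**
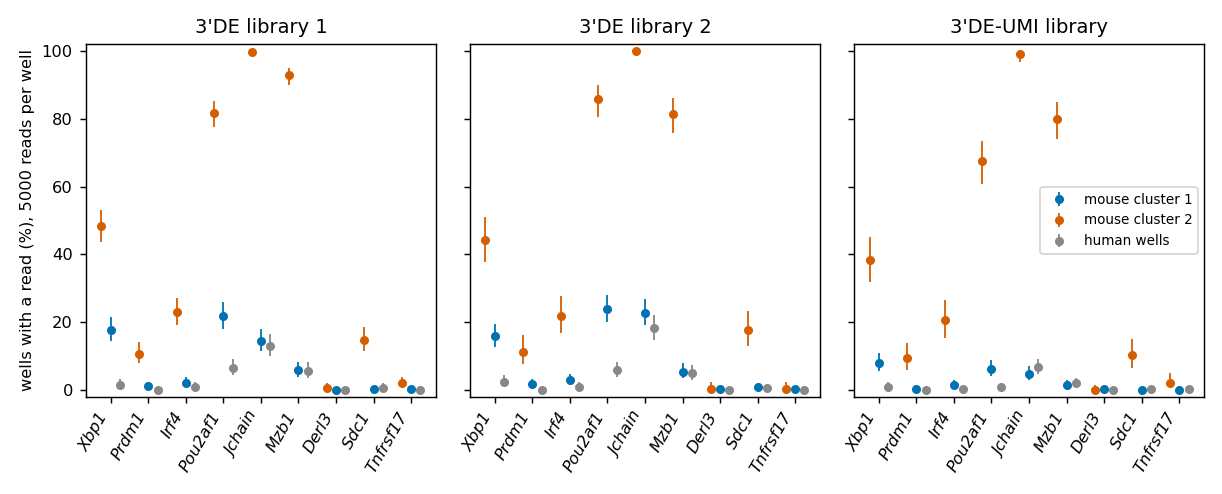
Share of wells with at least 1 read of each gene after thinning to 5000 reads, with exact 95% binomial intervals, in mouse cluster 2 (orange), mouse cluster 1 (blue) and human wells (grey) of each library. Cluster 2 wells reach 99.1% or more for *Jchain*; blue and grey overlap for *Jchain* and *Mzb1*, while blue lies above grey for *Xbp1* and *Pou2af1*.

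The ratio of each gene to *Jchain* was compared between kinds of well within a library. For *Mzb1* it was 0.399, 0.207 and 0.247 reads per *Jchain* read in cluster 2, 0.419, 0.226 and 0.462 in cluster 1, and 0.420, 0.154 and 0.190 in human wells. In 3'DE library 1 the 3 kinds of well thus lay close together for this gene. For *Xbp1* the ratio was 0.105, 0.0681 and 0.0551 in cluster 2 and 0.122, 0.0464 and 0.0999 in human wells, but 0.992, 1.44 and 2.58 in cluster 1. For *Pou2af1* it was 0.243, 0.290 and 0.212 in cluster 2, 0.510, 0.281 and 0.0810 in human wells, and 1.57, 1.61 and 2.35 in cluster 1. For *Irf4* it was 0.0343, 0.0392 and 0.0329 in cluster 2, 0.0787, 0.0645 and 0.00135 in human wells, and 0.157, 0.109 and 0.435 in cluster 1. Human wells thus lay above cluster 2 for *Irf4* in both 3'DE libraries and for *Pou2af1* in 3'DE library 1.

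Wells of mouse cluster 2 carried several members together. After thinning to 5000 reads they held a read of 3.74 ± 1.00 (SD over 426 wells), 3.63 ± 1.07 (237 wells) and 3.27 ± 1.21 (224 wells) of the 9 genes. At least 3 members were found in 92.5%, 87.3% and 73.2% of them, and in 1.96%, 2.301% and 0% of mouse cluster 1 wells. No cluster 2 well was without a member, whereas 51.0%, 44.6% and 79.4% of cluster 1 wells had none. Of cluster 1 wells, 3, 7 and 2 had more *Jchain* per mouse read than the lowest 5% of cluster 2 wells. All 9 genes were never seen in one well at this depth; the most was 7.

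**Figure D4:**
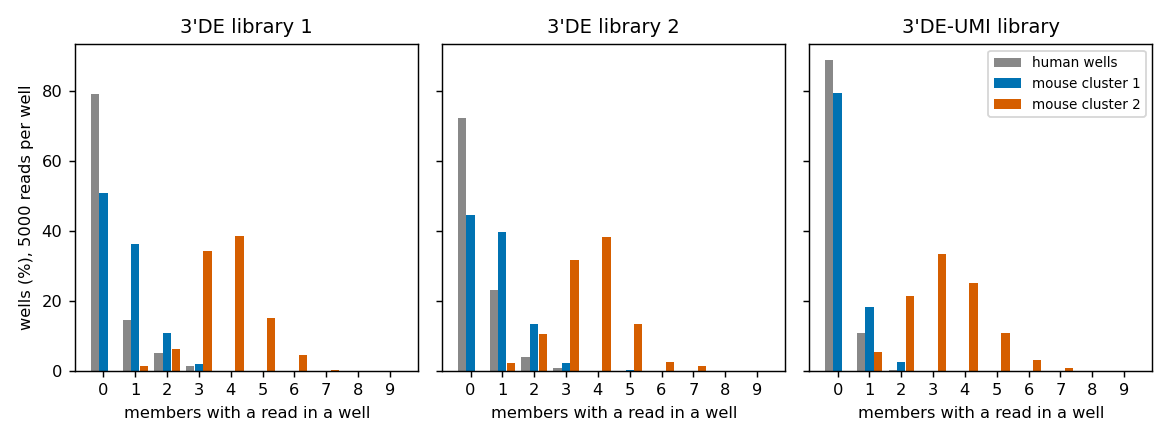
Share of wells (bars) by the number of members with at least 1 read after thinning to 5000 reads, in human wells (grey), mouse cluster 1 (blue) and mouse cluster 2 (orange) of each library. Cluster 2 wells average 3.74, 3.63 and 3.27 members, whereas 79.1%, 72.3% and 89.1% of human wells and 51.0%, 44.6% and 79.4% of cluster 1 wells sit at 0.

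Within mouse cluster 2, after thinning each well to 5000 reads, the rank correlations among members were low. Over the 28 pairs of the 8 genes other than *Derl3*, Spearman's rho across wells had a median of 0.0186, 0.0132 and 0.0824, with the highest values at 0.175 (*Xbp1* and *Mzb1*), 0.125 (*Irf4* and *Sdc1*) and 0.326 (*Jchain* and *Mzb1*). The last pair had 0.0362 and 0.0205 in the 3'DE libraries, and 0.143 in the UMIs of the 3'DE-UMI library, thinned to 1000 UMIs. Unthinned, the highest values were larger, at 0.199 (*Xbp1* and *Mzb1*), 0.286 (*Prdm1* and *Irf4*) and 0.342 (*Jchain* and *Mzb1*). Not every pair rose: *Pou2af1* and *Jchain* went from -0.0151 thinned to -0.101 unthinned in the 3'DE-UMI library. Wells of a library share its amplification, and counts this sparse hold down any rho, so these are descriptions without a test. Other mouse genes found in at least 10% of cluster 2 wells of every library numbered 4621. Their mean rho with the summed members reached 0.149 (ENSMUSG00000106567) and 0.141 (ENSMUSG00000020423), which are weak. By library these were 0.116, 0.0900 and 0.242, and 0.236, 0.125 and 0.0630. The sum leans on *Jchain*, with 2126, 3362 and 4362 of the 3860, 5500 and 6860 CPM.

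Levels varied widely from well to well. *Jchain* had a median of 19.6, 30.6 and 36.8 reads per 10000 mouse reads in cluster 2 wells, with a range from the 5th to the 95th percentile of 7.96 to 41.2, 8.45 to 85.2 and 8.52 to 98.1. Its highest well in the 3'DE-UMI library stood at 927, with 271 of 2924 mouse reads, and the next at 306. *Mzb1* had a median of 7.85, 5.64 and 8.08 per 10000 and *Pou2af1* a median of 4.21, 7.81 and 5.08. The summed CPM weigh deep wells more than shallow ones: the tenth of cluster 2 wells with most *Jchain* reads held 22.6%, 50.3% and 36.2% of them.

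The second question was whether the protocols gave the programme at different levels. Within mouse cluster 2, none of the 8 members that passed the filter differed between 3'DE-UMI and 3'DE at an edgeR adjusted p below 0.05, beside 2.35% of 11652 genes. With 3 profiles and 1 residual degree of freedom, the spread came from the 3'DE pair alone, and the single 3'DE-UMI profile was taken to have that same spread. It was pooled over genes, so little of a gene's own spread entered its interval, and the intervals were wide. The log2 difference was 0.47 for *Jchain* (95% interval, -1.03 to 1.96), 0.23 for *Mzb1* (-0.99 to 1.44), 0.12 for *Pou2af1* (-1.07 to 1.32), -0.15 for *Xbp1* (-1.15 to 0.86) and -0.15 for *Sdc1* (-1.10 to 0.81). *Irf4* had 0.29 (-0.62 to 1.2005), *Prdm1* 0.22 (-0.72 to 1.16) and *Tnfrsf17* 0.68 (-0.86 to 2.21). The lowest adjusted p among them was 0.722, none was below 0.05 unadjusted, and DESeq2 called 0 of them. In simulated counts this comparison recovered 0% of log2 changes of 1 and 1% of log2 changes of 2, so a missing call says little. Against 3'DE library 2 alone, which shares the mixture, the value was 0.25 for *Jchain*, 0.51 for *Mzb1* and -0.20 for *Pou2af1*, with no test.

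The third question was whether the difference between the clusters depended on the protocol. It was larger in 3'DE-UMI for *Jchain*, by 1.99 on the log2 scale (SE 0.38; edgeR adjusted p = 0.000104), beside 1.84% of 11270 genes called in this direction. The 3'DE-UMI arm is 1 library and was taken to have the spread of the 3'DE pair, so the p-values carry no spread of its own. That spread was pooled over genes, so little of a gene's own spread entered its p-value. In simulated counts the interaction fit recovered 0% of log2 changes of 1 and 8% of log2 changes of 2, so a missing call says little. *Sdc1* was also called, but its value of 7.36 (SE 1.70) compares with a profile of 0 reads in a gene that passed the filter only through cluster 2, and is neither an estimate of size nor read as a difference. *Mzb1* (1.18, SE 0.38; edgeR adjusted p = 0.0601) and *Pou2af1* (1.10, SE 0.37; 0.0707) did not pass, nor did *Xbp1* (0.27), *Irf4* (0.07), *Prdm1* (-0.73) or *Tnfrsf17* (4.81). The *Jchain* call was lost when UMIs replaced the reads of the 3'DE-UMI library (0.59; edgeR adjusted p = 1) and without the deepest 10% of wells (1.78; 0.0639). The *Sdc1* call was lost under both of these, with DESeq2 (adjusted p = 0.139) and after thinning each well to 5000 reads (edgeR adjusted p = 0.324). The cluster 1 level moved with it: *Jchain* in mouse cluster 1 was 18.2 CPM in the 3'DE-UMI library against 45.5 and 49.6. The median share of human reads in those wells was 0.405% against 0.463% and 1.71%. Measures from human wells did not all move alike. Their median share of mouse reads was 1.58% in the 3'DE-UMI library against 0.241% and 4.06%. Their *Jchain* level, as CPM of the reads of both species, was 47.5 against 51.3 and 48.3. After thinning to 5000 reads, *Jchain* was found in 6.76% of human wells against 13.2% and 18.3%. The part of stray reads in the *Jchain* interaction was not tested.

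UMIs in the 3'DE-UMI library gave the molecules behind the reads. Mouse cluster 2 wells held 2700 UMIs of *Jchain* (11.7 ± 11.5 per well, SD over 230 wells), 793 of *Mzb1*, 646 of *Pou2af1*, 221 of *Xbp1*, 89 of *Irf4*, 60 of *Sdc1*, 36 of *Prdm1*, 7 of *Tnfrsf17* and 1 of *Derl3*. In mouse cluster 1 the 468 wells held 69 of *Xbp1*, 63 of *Pou2af1*, 48 of *Jchain*, 18 of *Mzb1*, 11 of *Irf4*, 9 of *Prdm1*, 1 of *Derl3* and 0 of *Sdc1* and *Tnfrsf17*. A single cluster 1 well had 14 of the 63 *Pou2af1* UMIs, and a single well had 5 of the 9 *Prdm1* UMIs. Of 1457 barcodes in both tables, 356 had a *Jchain* read, 12 of them without a UMI. A UMI was missing for 14 of 82 barcodes with an *Irf4* read, 18 of 249 for *Pou2af1*, 11 of 251 for *Mzb1*, 8 of 185 for *Xbp1*, 3 of 39 for *Prdm1*, 2 of 53 for *Sdc1* and 2 of 9 for *Tnfrsf17*. A UMI without a read was seen once, for *Mzb1*.

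Per UMI, *Jchain* had 16.5 reads in mouse cluster 2, above 90.6% of the 2745 mouse genes with at least 50 UMIs, whose median was 12.9. *Irf4* had 16.4, *Pou2af1* 14.6, *Mzb1* 13.8, *Xbp1* 11.1 and *Sdc1* 7.68, the last above 11.6% of genes. In mouse cluster 1, *Jchain* had 6.85 and *Mzb1* 8.44 reads per UMI, where all mouse genes together had 11.6, *Xbp1* 12.3, *Pou2af1* 12.3 and *Irf4* 13.0. In human wells all mouse genes together had 6.47 reads per UMI. There *Jchain* had 14.25 (52 UMIs), *Mzb1* 8.29 (17 UMIs) and *Pou2af1* 4.0 (15 UMIs). A *Jchain* molecule in cluster 1 was thus carried by fewer reads than one in cluster 2, and the reads put the level of cluster 1 lower (18.2 CPM) than the UMIs did (30.8 per 1000000 mouse UMIs). In cluster 2 the reads put it higher, at 4362 CPM against 2899 per 1000000 UMIs. Both differences act on the read-based fold of 239 in this library, against 94.0 by UMIs.

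**Figure D5:**
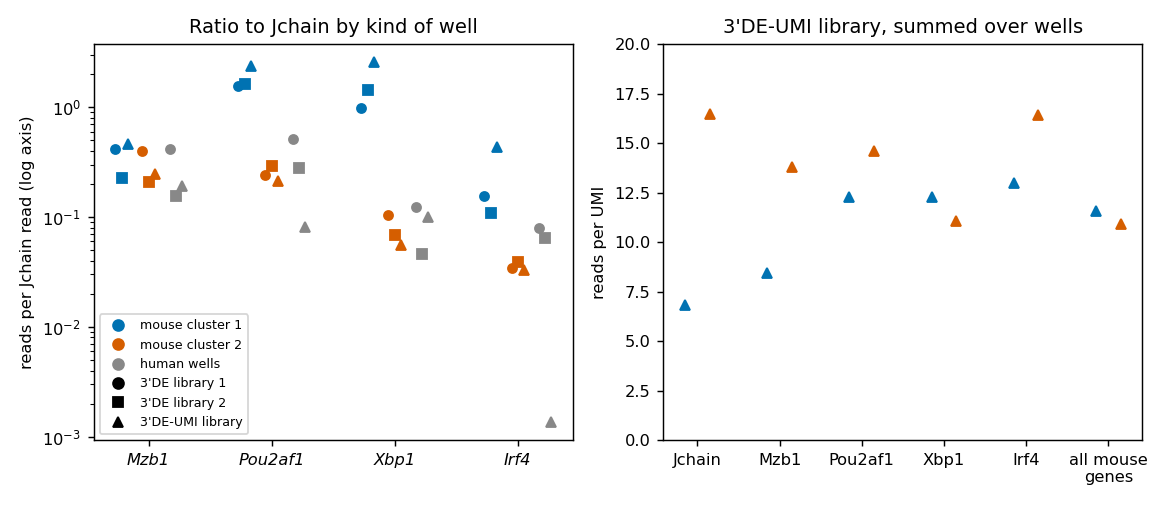
Left, reads of 4 members per *Jchain* read (log axis) in mouse cluster 1 (blue), mouse cluster 2 (orange) and human wells (grey) of each library (marker shape); right, reads per UMI in the 3'DE-UMI library for 5 members and for all mouse genes together. The *Mzb1* ratio runs from 0.399 to 0.420 over the wells of 3'DE library 1, while those of *Xbp1*, *Pou2af1* and *Irf4* are highest in cluster 1, and *Jchain* has 6.85 reads per UMI in cluster 1 against 16.5 in cluster 2.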

How the data were processed

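The authors made the deposited counts: raw reads per gene and well with mappa and STAR 2.7.0b, and, for the 3'DE-UMI library, UMI counts with the Drop-seq tools and STAR 2.4.2a, on a combined hg19 and mm10 reference (Cell Ranger 1.2.0). The study's methods describe downsampling of reads ahead of counting; no source states that these tables hold the reduced reads. Wells were kept with 1000 reads and 200 genes, and called mixed when the rarer species held 10% of reads; doublets of the same species were not removed. Mouse wells of all libraries were clustered in scanpy 1.11.5 without the 9 members (1000 variable genes, 20 components, 15 neighbours, Leiden resolution 0.1). Other genes were divided into 2 sets, each tested on wells clustered on the other; members were tested on wells placed alike by both. Counts were summed per library and cluster and fitted in edgeR 4.0.16 (quasi-likelihood, two-sided), tested on simulated data, with DESeq2 1.42.0 as an alternative. The members and lists were chosen with earlier results of these data known. All 9 members are named by rule, with up to 8 genes most like them, of which 2 are printed. The lists of secretory and other plasma-cell genes, the line markers, sequences and promoter motifs were not analysed here, because the files and reference pair no mouse identifier with a symbol or sequence. Replicate numbers of the 3'DE libraries follow accession order and pair nothing.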

Additional observations from a re-analysis of the deposited data

Results flagged for a closer look

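The edgeR interaction of cluster and protocol was called for 2 members, with 1 library in the 3'DE-UMI arm, taken to have the spread of the 3'DE pair. For *Jchain* it was larger in 3'DE-UMI by 1.99 on the log2 scale, and for *Sdc1* by 7.36, a value that rests on 0 reads in mouse cluster 1 of that library. *Sdc1* had also passed the filter only through cluster 2. Both calls were lost with UMIs (edgeR adjusted p = 1 for each) and without the deepest 10% of wells (0.0639 and 0.0670). The cause was not tested.

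The UMI table held 1543 barcodes that the read table did not list, with 92828 UMIs in all. Under them were 71 UMIs of *Jchain* in 60 barcodes, 26 of *Mzb1*, 15 of *Pou2af1*, 7 of *Xbp1* and 4 of *Irf4*. That is 765 *Jchain* UMIs per 1000000 UMIs of both species, against 45.5 in human wells. Mouse cluster 2 wells had 2899 per 1000000 mouse UMIs. These barcodes were not sorted by species, so their rate is not read as an excess of *Jchain*.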

How the results depend on the processing

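The 6 members that passed the filter on cluster 1 alone stayed higher in mouse cluster 2 and called under the alternatives run, save that 4 of them passed at an adjusted p of 1e-04. Genes called between the clusters (4568) became 311 at that threshold, 2972 with no replicate block, where the block is the library itself, and 2956 to 5084 leaving out a library, the lowest without 3'DE library 2. Replicate numbers pair nothing here beyond the library.

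Genes called between the protocols (274) became 161 with equal numbers of wells. After thinning each well to 5000 reads, *Tnfrsf17* alone was called among the members (log2 difference 3.38). In wells thinned for detection it had a read in 9, 1 and 5 cluster 2 wells, so this value is not read as a difference. No member was called under the other alternatives, and small differences changed sign. UMIs replaced reads in the 3'DE-UMI library only, so that setting compares UMIs with reads of the 3'DE libraries. There, log2 differences were -0.16 for *Prdm1*, -0.18 for *Irf4*, -0.18 for *Pou2af1*, -0.017 for *Jchain*, -0.018 for *Mzb1* and 0.47 for *Sdc1*. Without the deepest 10% of wells they were -0.042 for *Irf4* and -0.049 for *Pou2af1*, and thinned, 0.061 for *Sdc1*. Leaving out a 3'DE library gave values without a test of -0.0036 to 0.48 for *Prdm1*, -7.06e-05 to 0.64 for *Irf4*, -0.20 to 0.51 for *Pou2af1* and -0.30 to 0.021 for *Sdc1*.

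Genes called for the interaction (323, with 2 members) became 49 with DESeq2 (1 member, *Jchain*), 7 with UMIs (0 members), 169 thinned (2 members) and 42 without the deepest 10% of wells (0 members), and 4 members passed with equal numbers of wells. At an unadjusted edgeR p below 0.05 there were 522 genes with UMIs and 1719 without the deepest wells. The members called were not the same throughout: *Mzb1* and *Pou2af1* were added with equal numbers of wells, and *Pou2af1* stood in place of *Sdc1* after thinning. Signs changed for *Prdm1*, at 0.087 thinned and 1.09 without the deepest wells, and for *Irf4*, at -0.40 with UMIs and -0.50 without the deepest wells. Without a 3'DE library, untested values ran from -0.10 to 0.65 for *Xbp1* and -0.45 to 0.67 for *Irf4*. The cause was not tested.

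Members found per cluster 2 well were 2.87, 2.82 and 2.73 at 2000 reads, 4.70, 4.38 and 3.81 unthinned, and 2.29 at 1000 UMIs in 3'DE-UMI. Reads per UMI moved little with wells of at least 5000 reads. The weight of deep wells was examined after seeing the data (the thinned profiles and those without the deepest wells). At this depth *Derl3* had 3 to 10 reads per library in cluster 2.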
